A study of Homo sapiens with 10 samples.

Results

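H3K4me3 peaks of cells with a CGGBP1-silencing shRNA (KD) were compared with those of cells with a non-targeting shRNA (CT). The members were all peaks of the H3K4me3 lists of both conditions. They numbered 76814 in CT and 81932 in KD, together 158746 of the 285741 peaks in the 9 lists used, and came from 2 of the 10 libraries of the series. The study asked how CGGBP1 bears on CTCF and on histone marks around its binding sites. Both groups were HEK293T cells, a human embryonic kidney line, stably transduced with lentivirus and selected with puromycin. Per the methods, the silencing shRNAs were directed against several regions of the CGGBP1 open reading frame. Each condition has 1 H3K4me3 library, so no test between conditions and no p-value is given. Intervals in parentheses are 95% intervals, exact Clopper-Pearson for shares, and cover counting error over peaks, tiles or genes only. The lists hold positions without heights or read counts, so the depth behind a single peak is unknown.

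H3K4me3 is trimethylation of lysine 4 of histone H3, laid down by SET1 and MLL (KMT2) methyltransferase complexes. It marks the nucleosomes around transcription starts, above all at unmethylated CpG islands, where CFP1 and related CxxC proteins bring the enzymes to CpG-rich DNA. Bodies of inactive genes usually lack it, and many developmental genes in stem and embryonic cells carry it together with H3K27me3, the mark of Polycomb. CGGBP1 is a nuclear protein named for its binding to CGG triplets.

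A peak was called a promoter peak when it touched the window of 1 kb on either side of any annotated transcript start of GENCODE release 44, and the remaining peaks are called away. A gene was scored by the windows around the starts of its protein-coding transcripts. A peak was shared when a peak of the other condition overlapped it by at least 1 bp, and otherwise exclusive to its condition (CT only or KD only). Values below are for chromosomes 1 to 22 and X in the hg38 build.

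The promoters below are examples from genes of each class. They are the RefSeq promoters of GRCh38.p14, from 250 bases before to 50 after the start. Of 19626 protein-coding genes, 15284 matched a RefSeq promoter by symbol. The genes are the leading named genes of each class whose RefSeq promoter lay at least partly under the peak, a choice made after the values were seen, beside GAPDH, a glycolytic enzyme with peaks in both conditions. Capitals mark CpG dinucleotides. GABRE (chrX:151974627-151974926, minus strand), ALPK2 (chr18:58629042-58629341, minus strand) and SSTR5 (chr16:1078576-1078875, plus strand) had a promoter peak in KD only. CYSLTR1 (chrX:78327562-78327861, minus strand), EMCN (chr4:100517973-100518272, minus strand) and ECM1 (chr1:150507859-150508158, plus strand) had one in CT only. GAPDH is at chr12:6535014-6535313 on the plus strand. Peaks covered all 300 bases shown except for GABRE, where KD peaks covered 60 and the rest lies between them, and CYSLTR1, where CT peaks covered 180.
GABRE: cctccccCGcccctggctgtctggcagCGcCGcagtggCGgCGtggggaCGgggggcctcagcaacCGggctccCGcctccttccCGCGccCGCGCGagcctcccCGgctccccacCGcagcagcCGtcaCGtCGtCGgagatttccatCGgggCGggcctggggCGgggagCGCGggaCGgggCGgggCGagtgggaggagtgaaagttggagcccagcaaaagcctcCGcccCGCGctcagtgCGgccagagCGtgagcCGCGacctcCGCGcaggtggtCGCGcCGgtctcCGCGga
ALPK2: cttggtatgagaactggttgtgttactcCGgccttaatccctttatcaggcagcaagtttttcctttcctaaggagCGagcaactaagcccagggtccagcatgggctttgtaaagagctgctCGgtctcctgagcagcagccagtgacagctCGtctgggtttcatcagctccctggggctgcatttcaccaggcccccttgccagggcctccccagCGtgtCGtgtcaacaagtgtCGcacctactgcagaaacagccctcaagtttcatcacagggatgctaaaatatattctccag
SSTR5: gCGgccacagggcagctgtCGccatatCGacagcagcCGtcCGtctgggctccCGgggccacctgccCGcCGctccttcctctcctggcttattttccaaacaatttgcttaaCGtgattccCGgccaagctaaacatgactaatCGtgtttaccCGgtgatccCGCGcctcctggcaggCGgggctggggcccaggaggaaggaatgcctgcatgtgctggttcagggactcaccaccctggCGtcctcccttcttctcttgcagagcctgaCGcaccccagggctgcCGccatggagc
CYSLTR1: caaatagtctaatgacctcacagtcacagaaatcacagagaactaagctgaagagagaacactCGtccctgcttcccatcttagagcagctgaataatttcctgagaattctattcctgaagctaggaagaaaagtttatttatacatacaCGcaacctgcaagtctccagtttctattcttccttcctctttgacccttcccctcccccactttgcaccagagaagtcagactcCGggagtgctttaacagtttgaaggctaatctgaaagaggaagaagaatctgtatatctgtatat
EMCN: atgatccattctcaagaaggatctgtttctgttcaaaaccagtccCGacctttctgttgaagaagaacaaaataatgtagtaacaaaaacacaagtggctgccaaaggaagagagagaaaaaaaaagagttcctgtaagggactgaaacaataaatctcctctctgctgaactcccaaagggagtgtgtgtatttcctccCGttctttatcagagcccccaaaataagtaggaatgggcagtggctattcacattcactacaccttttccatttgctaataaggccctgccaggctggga
ECM1: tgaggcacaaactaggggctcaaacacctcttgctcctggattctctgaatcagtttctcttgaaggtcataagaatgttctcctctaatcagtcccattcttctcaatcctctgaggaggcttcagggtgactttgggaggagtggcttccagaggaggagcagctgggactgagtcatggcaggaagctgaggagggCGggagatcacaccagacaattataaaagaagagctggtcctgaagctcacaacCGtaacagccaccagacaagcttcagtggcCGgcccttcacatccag
GAPDH: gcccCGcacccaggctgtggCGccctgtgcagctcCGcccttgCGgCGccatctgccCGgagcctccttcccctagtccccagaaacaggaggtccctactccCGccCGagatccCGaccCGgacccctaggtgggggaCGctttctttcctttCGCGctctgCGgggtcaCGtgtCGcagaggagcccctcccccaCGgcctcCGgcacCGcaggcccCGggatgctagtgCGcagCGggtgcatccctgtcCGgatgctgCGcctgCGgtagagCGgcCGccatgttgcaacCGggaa

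The promoter of GABRE holds 41 CpG and 76.7% G and C, that of SSTR5 18 and 63.0%, and that of GAPDH 28 and 70.7%. Those of CYSLTR1 and ECM1 hold 3 CpG each and that of EMCN 2. The promoter of ALPK2, also KD only, holds 7 CpG.

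A further 4 peaks are shown from the hg38 build. CAPN3 (chr15:42388900-42389143, plus strand, over exon 5 of 24) and COL6A3 (chr2:237357257-237357451, minus strand, over exon 23 of 44) carry exonic peaks of CT only, and the exon is in capitals. HECTD4 (chr12:112381913-112382179, minus strand) and KDM2A (chr11:67119307-67119517, plus strand) carry promoter peaks of KD only, and the run of CGG triplets is in capitals. These peaks were chosen after the values were seen, because they represent the exon peaks and the CGG-rich peaks described further on.
CAPN3: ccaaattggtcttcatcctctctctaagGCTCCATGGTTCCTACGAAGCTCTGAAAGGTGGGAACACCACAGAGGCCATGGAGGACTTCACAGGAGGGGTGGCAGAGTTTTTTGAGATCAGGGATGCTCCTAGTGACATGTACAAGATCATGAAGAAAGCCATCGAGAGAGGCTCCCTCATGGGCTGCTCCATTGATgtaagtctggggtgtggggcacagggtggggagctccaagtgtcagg
COL6A3: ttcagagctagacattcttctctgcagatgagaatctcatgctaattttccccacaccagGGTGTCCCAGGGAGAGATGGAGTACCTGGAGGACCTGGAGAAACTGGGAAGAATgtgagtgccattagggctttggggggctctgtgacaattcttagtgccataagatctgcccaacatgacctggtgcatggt
HECTD4: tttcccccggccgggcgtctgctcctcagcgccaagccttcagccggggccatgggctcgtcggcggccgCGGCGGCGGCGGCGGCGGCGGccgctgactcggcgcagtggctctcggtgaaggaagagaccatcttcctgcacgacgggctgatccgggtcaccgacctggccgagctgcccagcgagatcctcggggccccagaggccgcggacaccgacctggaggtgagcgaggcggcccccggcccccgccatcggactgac
KDM2A: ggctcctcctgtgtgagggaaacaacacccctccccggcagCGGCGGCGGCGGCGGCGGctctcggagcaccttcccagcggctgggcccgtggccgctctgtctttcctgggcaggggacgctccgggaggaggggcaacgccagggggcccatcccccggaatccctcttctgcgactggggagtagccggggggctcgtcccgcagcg

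The label H3K4me3 was checked against fixed sets of promoters. All 10 housekeeping genes of the check, among them ACTB, GAPDH and TBP, had a promoter peak in both conditions. Of 20 genes of other cell types, such as ALB of liver, HBB of red cells and INS of the pancreas, 19 had none in either condition. The exception was TTR, the carrier of thyroid hormone made in liver and choroid plexus, with 466 bp covered in CT and 708 bp in KD. Some of the 19 depend on the window edge. Peaks lay 38 bp (CT) and 144 bp (KD) from the windows of HBB, and 779 and 774 bp from those of APOA2. A KD peak lay 452 bp from those of GCG. Of 10 genes of the embryonic kidney, 7 had a peak in both, among them PAX2, LHX1, WT1, SIX2, EYA1 and SALL1. The interval of this share, 34.8 to 93.3%, includes the 72.3% of all protein-coding genes that had a peak in both. With 10 genes the interval is too wide to tell the kidney genes from genes at large, so they do not bear on the label. OSR1, an early kidney factor, had 280 bp in CT only, 10.0% of the list (0.253 to 44.5%) against 0.387% of all genes. The kidney factor PAX8 had none, with peaks 209 bp (CT) and 91 bp (KD) from its windows. CGGBP1 itself had 4 promoter peaks in each condition, with 3730 bp covered in CT and 3853 bp in KD. A promoter mark does not measure the transcript that the shRNA targets, so this is no check of the knockdown.

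Promoters had nearly the same peaks in both conditions, while the lists differed more away from them. On chromosomes 1 to 22 and X there were 73862 CT peaks and 78837 KD peaks. At promoters lay 28327 CT peaks (38.4% of the list, 38.0 to 38.7%) and 29077 KD peaks (36.9%, 36.5 to 37.2%), a KD over CT ratio of 1.03 (1.01 to 1.04). Away from promoters lay 45535 CT peaks and 49760 KD peaks, a ratio of 1.09 (1.08 to 1.11). KD thus listed more peaks at either location, and most of the additional ones lay away from promoters. In KD, 410 promoter peaks and 2860 peaks away from promoters were narrower than 195 bp, the smallest width in CT. From 195 to below 211 bp CT had more peaks, 633 against 453 in KD at promoters and 3715 against 2408 away from them. The smallest width thus differed between the lists, and the KD peaks under 195 bp cannot all be counted as excess. With peaks of 300 bp or wider the ratios were 1.02 at promoters and 1.05 away from them.

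Width told the locations apart more than the conditions. Promoter peaks had a median width of 849 bp (840 to 859) in CT and 846 bp (836 to 856) in KD. Peaks away from promoters measured 426 bp (423 to 430) in CT and 408 bp (405 to 411) in KD, a KD minus CT difference of -18.0 bp against -3 bp at promoters. The interval of the promoter difference includes 0, and both signs changed when each list was cut to its 70000 widest peaks. Promoter peaks covered 27.4 Mb in CT and 27.7 Mb in KD, a ratio of 1.01, and peaks away from promoters 24.3 and 25.6 Mb, a ratio of 1.06. Peaks of both conditions covered 43.5 Mb in common, those of CT alone 8.06 Mb and those of KD alone 9.79 Mb. The promoter windows make up 6.93% of the chromosomes and held 47.4% of the CT peak bases and 46.9% of the KD peak bases. The narrowest peaks measured 195 bp in CT, where 2022 had that width, and 188 bp in KD, where 2158 did, so the smallest peak the lists admit differed by condition.

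**Figure D1:**
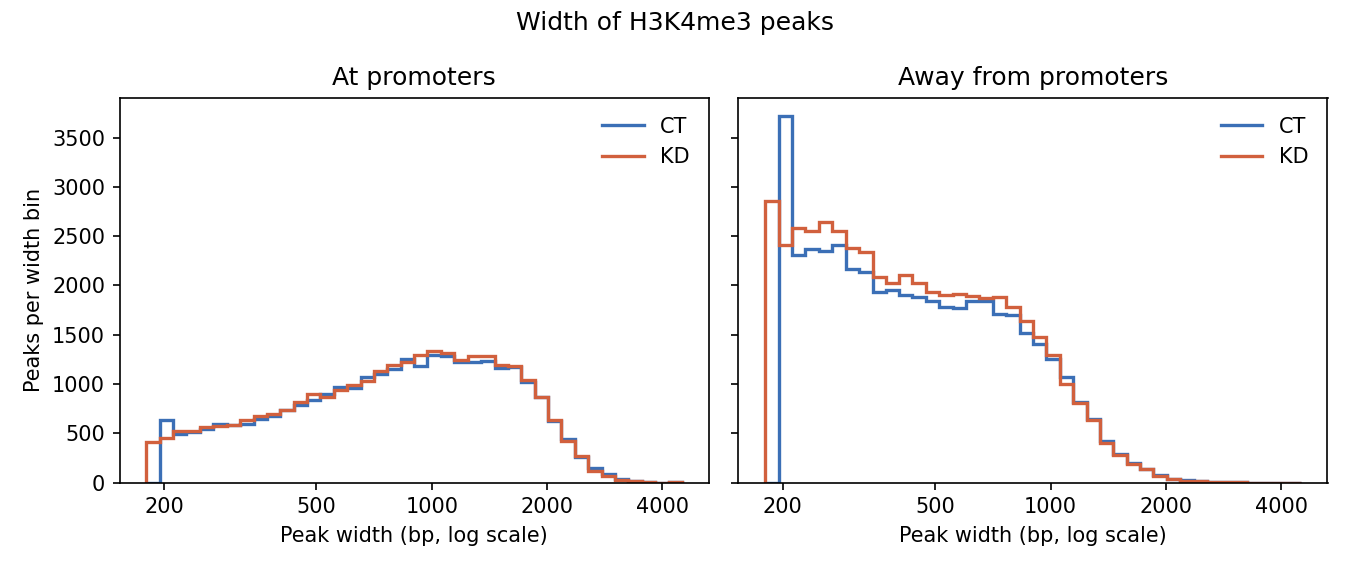
Widths of the H3K4me3 peaks of CT and KD on a log scale, as peaks per width bin, at promoters and away from them. The promoter curves of both conditions nearly coincide, and away from promoters KD has more peaks below 1000 bp, most of the excess under 300 bp, with the first bins set by the narrowest width of 195 bp in CT and 188 bp in KD.

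Of the promoter peaks, 96.5% of those in CT (96.3 to 96.7%) met a KD peak, and 93.1% of those in KD (92.8 to 93.4%) met a CT peak. Away from promoters the shared part was 79.0% in CT (78.6 to 79.4%) and 73.0% in KD (72.6 to 73.4%). This left 995 promoter peaks in CT only against 1995 in KD only. Away from promoters it left 9559 peaks in CT only against 13447 in KD only. With each list cut to its 70000 widest peaks, the shared part at promoters was 95.9% in CT and 94.9% in KD. Away from promoters it was then 76.8% in CT and 77.1% in KD, nearly equal and in the other order. The peaks held by a single condition were narrow. At promoters their median width was 259 bp in CT and 250 bp in KD, against 877.5 and 903 bp for shared peaks, and away from promoters 263 and 260 bp against 512 and 518 bp.

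Among promoter peaks under 300 bp wide, 78.4% in CT (76.8 to 79.8%) and 59.3% in KD (57.6 to 61.0%) were shared. From 500 bp to below 1000 bp the shares were 99.3% and 98.7%. Of the promoter peaks from 1000 bp to below 2000 bp, 2 of 10001 in CT and 1 of 10251 in KD had no partner, and at 2000 bp or more every promoter peak of either list had one. Away from promoters 56.6% of the CT peaks and 48.0% of the KD peaks under 300 bp were shared, rising to 95.8% and 93.9% from 500 bp to below 1000 bp. Broad H3K4me3 domains at promoters were therefore common to both lists, and the difference between them sat in the narrow peaks. When each list was cut to its 70000 widest peaks the ratio of peak numbers was 1 at either location. Equal numbers kept from each list set the overall ratio near 1 by construction, so that ratio does not show where the difference sat.

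**Figure D2:**
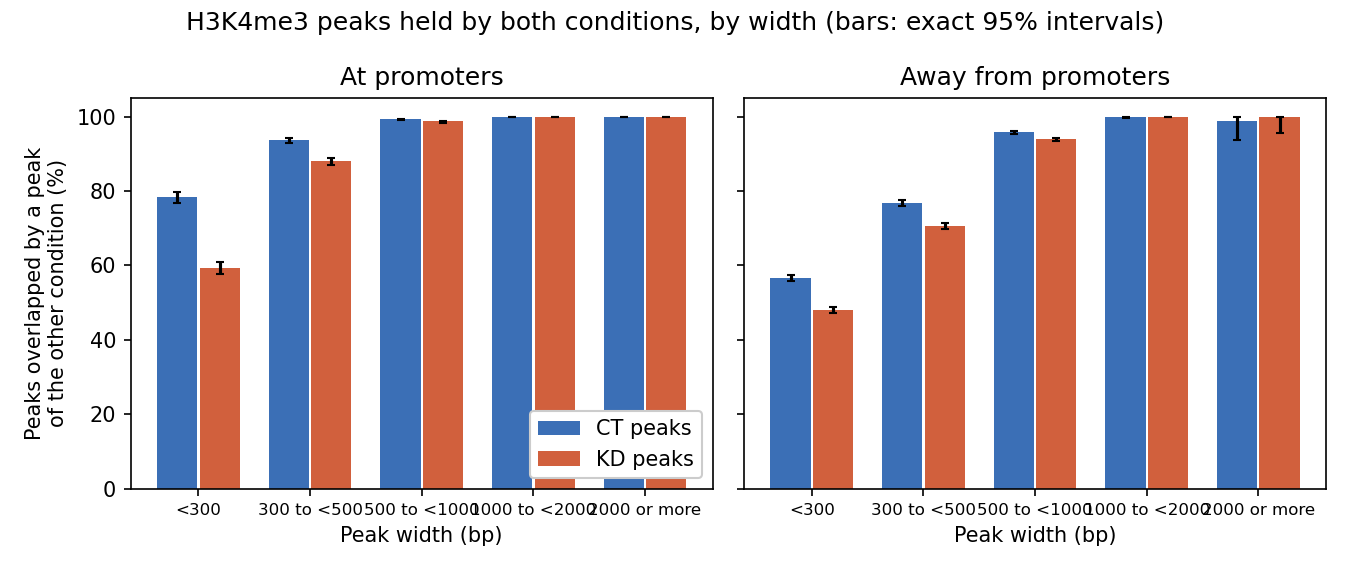
Share of the H3K4me3 peaks of CT and of KD that a peak of the other condition overlaps, by peak width, with exact 95% intervals. At promoters the share rises from 78.4% (CT) and 59.3% (KD) under 300 bp to 100% at 2000 bp or more, and in both panels the KD bars are the lower ones below 1000 bp.

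Where a CT peak and a KD peak overlapped each other and nothing else, the pair could be compared in width. At promoters the 24432 pairs had medians of 877 bp in CT and 892 bp in KD, and 52.6% (52.0 to 53.2%) were wider in KD. Away from promoters the 33294 pairs had medians of 511 and 521 bp, and 50.4% (49.8 to 50.9%) were wider in KD. A 2-fold difference in width was rare at promoters, with 255 pairs wider in KD and 142 wider in CT. Matched promoter domains thus had close to the same width in both conditions. In addition, 1950 CT peaks overlapped 2 or more KD peaks and 1859 KD peaks overlapped 2 or more CT peaks.

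Beyond the promoter the KD excess was similar up to 100 kb from the nearest start and absent further out. The KD over CT ratio of peak number was 1.10 from 1 to 5 kb, 1.12 from 5 to 20 kb and 1.09 from 20 to 100 kb. Beyond 100 kb it was 0.983, with 4683 CT peaks and 4602 KD peaks, and 73.9% of these CT peaks and 75.4% of these KD peaks were shared, against 80.3 and 72.1% from 5 to 20 kb. By chromosome the ratio of peaks away from promoters ran from 1.05 on chromosomes 2 and 5 to 1.19 on chromosome 22.

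Exclusive promoter peaks held a start less often than shared ones, largely in step with their width. An annotated start lay under 58.6% of the shared CT promoter peaks and 60.7% of the shared KD promoter peaks, but under 23.7% (21.1 to 26.5%) of those in CT only and 28.3% (26.3 to 30.3%) of those in KD only. Under 300 bp these shares were 26.4% of shared and 21.4% of exclusive CT peaks, and 25.2% of shared and 24.1% of exclusive KD peaks. Within 1 kb of a peak of the other condition lay 38.6% of the promoter peaks in CT only and 44.4% of those in KD only. Many exclusive promoter peaks therefore lay beside a peak of the other condition rather than alone. Introns held 39.9% of the promoter peaks in CT only and 31.1% of those in KD only, against 14.7% and 14.0% of shared ones, without regard to width.

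CTCF is the insulator protein whose binding sites the study followed. At promoters CTCF peaks of the same condition overlapped 8.81% of the shared and 9.35% (7.61 to 11.3%) of the exclusive CT peaks, and 13.5% of the shared and 11.1% (9.78 to 12.6%) of the exclusive KD peaks. Away from promoters the shares were 20.2% of shared against 13.4% of exclusive CT peaks, and 25.7% of shared against 15.0% of exclusive KD peaks. Shared distal peaks were also wider. Among distal peaks under 300 bp, CTCF overlapped 30.7% of shared and 14.6% of exclusive CT peaks, and 37.1% of shared and 16.2% of exclusive KD peaks, so shared distal H3K4me3 peaks met CTCF more often at like width as well. Without regard to width, shared distal peaks also met input peaks more often than exclusive ones (4.84% against 1.72% in CT, 4.81% against 0.781% in KD). The same held for H3K9me3 and H3K27me3 peaks of the same condition, so the higher overlap was not particular to CTCF. The CTCF list of KD is also the longer of the CTCF lists, with 46035 peaks against 41692 in CT. CTCF peaks of KD overlapped more of the shared distal CT peaks as well (26.0%, against 20.2% for CTCF peaks of CT).

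Peaks of the repressive marks met few promoter peaks. Peaks of H3K9me3, the mark of heterochromatin, overlapped 0.999% of the shared CT promoter peaks in CT and 0.676% of the shared KD ones in KD. H3K27me3 peaks overlapped 0.611% of the shared CT promoter peaks in CT and 0.284% of the shared KD ones in KD. The exception was the promoter peaks of CT only, of which 77 of 995 (7.74%, 6.16 to 9.58%) overlapped an H3K27me3 peak of CT. Of the 77, 65 lay in a small set of genes described next, and outside it the overlap was 12 of 913, or 1.31%. Input peaks overlapped 6 of the 995 promoter peaks of CT only and 1 of the 1995 of KD only.

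A set of genes carried runs of CT peaks over their exons. In 24 protein-coding genes at 22 loci, at least 4 exonic H3K4me3 peaks were present in CT only (C11orf65 and an unnamed gene count the peaks of ATM and RAD50, which they overlap). The set and its minimum of 4 were chosen after the values were seen. It holds 231 exonic peaks of CT only against 3 of KD only. These peaks had a median width of 260 bp, and their centres lay a median of 23 bp from the centre of an exon, as the CAPN3 and COL6A3 peaks shown above illustrate. In the 23 genes of the set with a MANE transcript, the agreed reference transcript of a gene, 275 of 594 exons had a CT peak and 31 had a KD peak. The CT peaks thus lay on exons along the gene, whereas H3K4me3 usually sits at starts. Whether they report modified chromatin of these genes or other DNA in the libraries was not tested, so the counts below are peaks of the lists and are not taken as H3K4me3 of the genes.

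By gene, ATM, the kinase that signals double-strand breaks, had 43 exonic CT peaks and 1 exonic KD peak, and CT peaks lay on 47 of its 63 MANE exons. BRCA2, of homologous recombination, had 19 against 1. RAD50, of the MRE11 complex, had 16 against 1, and its partner NBN 11 against 2. BRCA1, the ubiquitin ligase of the same repair pathway, had 14 against 2, its partner BARD1 7 against 1, and the helicase BRIP1 13 against 1. PALB2, the bridge between BRCA1 and BRCA2, had 10 against 1, RAD51C, of the same pathway, 7 against 1, and the checkpoint kinase CHEK2 9 against 1. Also in the set were CDH1 (E-cadherin) with 13 against 1, ERBB2 (a receptor tyrosine kinase) with 9 against 3, and CASP8 (a caspase of cell death) with 6 against 2.

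LAMA2, a laminin chain of the muscle basement membrane, had 30 exonic CT peaks and 11 exonic KD peaks. COL6A3, a chain of collagen VI, had 14 against 1. CAPN3, the muscle calpain, had 7 against 0, DYSF (dysferlin, membrane repair) 8 against 1 and DMD (dystrophin) 10 against 5. In every gene of the set the exonic CT peaks outnumbered the exonic KD peaks, an outcome that its choice favours.

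The same exons stood out in a mark that the choice of the set did not use. Of the 231 exonic H3K4me3 peaks of CT only, 184 (79.7%) overlapped an H3K27me3 peak of CT, against 31 of 867 (3.58%) such peaks outside the set. In these genes H3K27me3 had 243 exonic peaks in CT and 0 in KD, and the input had 0. ATM alone had 45 exonic H3K27me3 peaks in CT. H3K9me3 had 21 exonic peaks in CT and 11 in KD, so the pattern was strong in the H3K4me3 and H3K27me3 lists of CT and weak in H3K9me3. With the same minimum, KD-only exonic peaks gave 6 genes at 1 locus, the protocadherin gamma cluster, whose genes share their downstream exons.

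**Figure D3:**
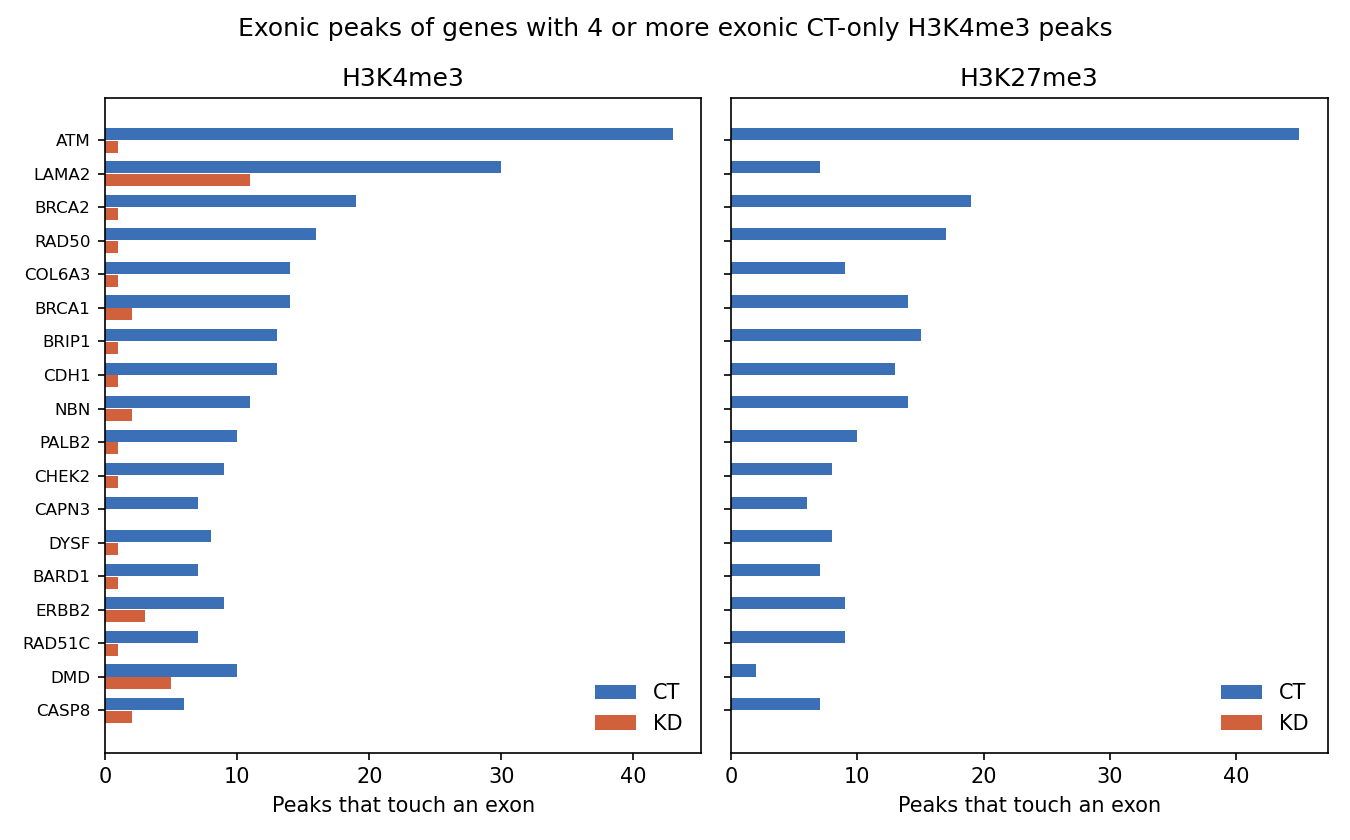
Exonic peaks per gene in CT and KD for H3K4me3 and H3K27me3, in genes with 4 or more exonic H3K4me3 peaks of CT only that the text names (the overlapping genes ATM and C11orf65, and RAD50 and an unnamed gene, are shown once). ATM has 43 exonic H3K4me3 peaks in CT against 1 in KD and 45 against 0 for H3K27me3, and no gene shown has an exonic H3K27me3 peak in KD.

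At the level of genes, nearly every promoter with a peak in a condition had it in both. Of 19626 protein-coding genes, 14185 (72.3%) had a promoter peak in both conditions and 5151 (26.2%) in neither. A peak in CT only was found for 76 genes, 0.387% of those tested, and a peak in KD only for 214 genes, 1.09%. These peaks were small, covering a median of 237 bp in the CT only class and 250 bp in the KD only class, against 1540 bp (CT) and 1558 bp (KD) where both had peaks. A peak of the other condition lay within 1 kb of the promoter windows in 15 of the 76 and 42 of the 214. Sequence found at several places in the genome lay under a peak in 13 of the 76 genes (17.1%), 26 of the 214 (12.1%) and 661 (4.66%) of those with both, so read placement is less certain for part of the single-condition genes. When each list was limited to its peaks of 40 to 60% GC, an alternative chosen after seeing the data, the counts became 1096 and 943, because that filter can remove the peak of a shared locus from a single list.

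The 12 genes with the most promoter bases in CT only had 379 to 679 bp under their peaks. CAPN3 (679 bp) and COL6A3 (565 bp) headed them, and belong to the exon set above. CYSLTR1, the receptor for cysteinyl leukotrienes, had 509 bp, EMCN (endomucin of endothelium) 493 bp and ECM1, an extracellular matrix protein, 481 bp. ARMC12, a testis gene with armadillo repeats, had 479 bp, and its windows also held CTCF peaks of both conditions. SAMD9L, an antiviral protein induced by interferon, had 435 bp, SLC9A4, a sodium-proton exchanger of the stomach, 405 bp, with a CTCF peak of KD in its windows, and CDH17, the intestinal cadherin, 386 bp. SOX6, a factor of cartilage and muscle development, had 379 bp, with a KD peak 472 bp from its windows. USP17L28, of a family of deubiquitinase repeats, had 423 bp, and GSTA1, a glutathione transferase, 387 bp. The peaks of both lie in sequence with near copies elsewhere.

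The 12 leading genes of KD only had 590 to 1152 bp under their peaks. GABRE, a subunit of the GABA-A receptor, had 1152 bp in KD from a pair of peaks, and its nearest CT peak was 57910 bp away. SSTR5, a somatostatin receptor, had 839 bp, KISS1R, the kisspeptin receptor, 811 bp, and P2RX7, an ATP-gated channel, 767 bp. ALPK2, an alpha kinase, had 898 bp, LSP1, an actin-binding protein of leukocytes, 835 bp, and SLC45A1, a sugar transporter, 806 bp. The KISS1R windows also held an H3K27me3 peak of CT. The zinc finger genes ZNF735 and ZNF117 had 707 and 673 bp. MOV10L1, an RNA helicase of the germ line piRNA pathway, had 695 bp, with a CT peak 605 bp from its windows and CTCF peaks of both conditions in them. VWA5B1 had 637 bp, and NKD2, an inhibitor of WNT signalling, 590 bp in sequence with near copies. The largest single-condition cover was thus larger in KD (1152 bp) than in CT (679 bp).

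Where both conditions had a promoter peak, the covered bases differed little. The median KD minus CT difference was 13.0 bp, with a range of -196 to 314 bp from the 5th to the 95th percentile, and 8034 of the 14185 genes (56.6%, 55.8 to 57.5%) had more bases in KD. A 2-fold or larger difference was found for 79 genes in favour of KD, 0.557% of them, and for 31 in favour of CT, 0.219%. The shift toward KD was largest where the promoter was least covered. In the lowest quintile of genes by covered bases the median difference was 28.0 bp and 64.7% had more in KD, and in the highest quintile these were 5.00 bp and 51.8%.

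Among the 6 genes with the largest difference toward CT, ERBB2 (4482 bp in CT, 3132 bp in KD) belongs to the exon set, and its start regions had peaks in both conditions. CUL3, the scaffold of a ubiquitin ligase, had 1885 bp in CT and 835 bp in KD. SAMD13 had 2923 and 1892 bp. ALDH1A1, a retinaldehyde dehydrogenase, had 1729 and 805 bp, and OXCT1, a mitochondrial enzyme of ketone body use, 2498 and 1628 bp. In CUL3, 1 CT peak over an exon had no KD partner, while the peaks at the other starts were held by both.

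In the other direction, TACC2, a centrosomal protein, had 2631 bp in CT and 4164 bp in KD, and CTDSP1, a phosphatase of the RNA polymerase II tail, 1781 and 3126 bp. LITAF, a protein of endosomal sorting, had 1753 and 3092 bp, MACF1, a linker of actin and microtubules, 5841 and 7131 bp, and ATF7IP, a partner of the methyltransferase SETDB1, 4987 and 6065 bp. TNFRSF9, the T cell costimulatory receptor 4-1BB, had 250 and 1398 bp. The 12 genes of either direction have 3 to 20 annotated coding starts, against a median of 3 over all genes, and windows of 6003 to 29234 bp.

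**Figure D4:**
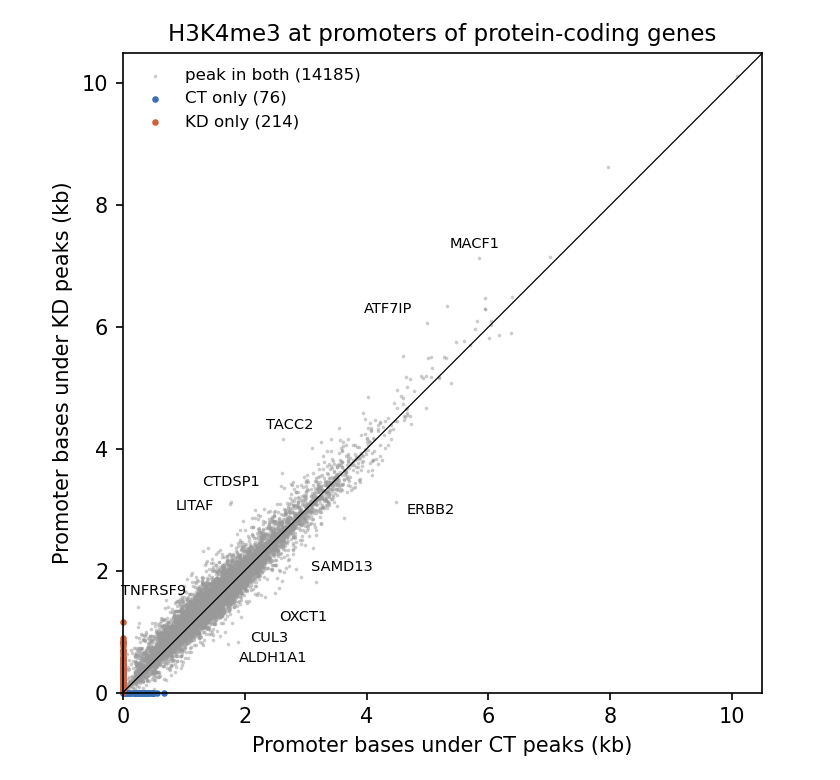
Promoter bases under CT peaks (horizontal) and under KD peaks (vertical) for protein-coding genes, in kb, with the line of equal cover. The 14185 genes with peaks in both lie close to the line, and the 76 CT only and 214 KD only genes lie on the axes below 1.2 kb.

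The chromatin regulators listed as writers and erasers of H3K4 methylation were themselves marked in both conditions, with RIOX1 as the exception. All 19 genes of the H3K4 methyltransferase complexes had a peak in both conditions, 13 of them with more bases in KD and a median difference of 16.0 bp, against 56.6% and 13.0 bp over all genes with both. HCFC1, a shared subunit of these complexes, had 1711 bp in CT and 2235 bp in KD, KDM6A (an H3K27 demethylase within them) 1068 and 1577 bp, the methyltransferase KMT2C 930 and 1255 bp and SETD1B 831 and 1206 bp, while KMT2B had 1594 and 1522 bp. Of 8 genes listed here as H3K4 demethylases, 7 had a peak in both. Of these, 3 had more bases in KD and 4 had fewer, with a median difference of -10 bp. RIOX1 had none in either condition. KDM1A (LSD1) had 1108 and 1442 bp, and KDM2A 4123 and 3962 bp. All 29 Polycomb genes had peaks in both, 18 with more bases in KD and a median difference of 19 bp, among them the H3K27 methyltransferase EZH2 (1370 and 1812 bp) and PCGF2, a RING partner of the other Polycomb complex (978 and 1564 bp). The other 11 had fewer bases in KD.

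HOX genes mostly had more covered bases in KD. Of 39 HOX genes, which pattern the body axis, 28 had a peak in both conditions, 8 in neither and 3 in KD only (7.69%, 1.62 to 20.9%, against 1.09% of all genes). The KD only ones were HOXA7 (537 bp), HOXD11 (499 bp, with a CT peak 63 bp from its windows) and HOXB5 (198 bp). Of the 28, 22 had more bases in KD, with a median difference of 82.0 bp, against 56.6% and 13.0 bp over all genes with both. HOXA3 had 1570 bp in CT and 2016 bp in KD, and HOXA6 had 256 and 606 bp. HOXD3 (2796 and 2351 bp), HOXC11 (1258 and 823 bp) and HOXB2 (769 and 417 bp) went the other way, so the HOX clusters did not move as a block.

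In the SOX, FOX, PAX, GATA and further factor families, 95 of 132 genes had a peak in both, 68 with more bases in KD and a median difference of 38.0 bp. SOX6 was CT only, 0.758% of the list (0.0192 to 4.15%) against 0.387% of all genes. FOXC1 (231 bp) and GATA5 (234 bp), which are outside the naming rule and were chosen after their values were seen, were KD only. They were 1.52% of the list against 1.09% of all genes. A CT peak lay 45 bp from the windows of FOXC1 and 232 bp from those of GATA5. Of 29 WNT ligands and FZD receptors 25 had a peak in both, 16 with more in KD (median difference 25 bp), near the 56.6% of all genes with both. WNT10A had 107 bp in KD only, 3.45% of the list (0.0873 to 17.8%) against 1.09% of all genes. WNT7A had 1207 and 1566 bp, and the receptors FZD1 and FZD6 had 1075 and 1349 bp and 1811 and 1563 bp. Of 25 neuronal genes 24 had a peak in both, with a median difference of 42.5 bp. SYN1, a protein of synaptic vesicles, had 241 bp in CT and 694 bp in KD, NEFM, a neurofilament chain, 1549 and 2047 bp, and CELF4, a neuronal RNA-binding protein, 2637 and 3361 bp, while SYT1, a calcium sensor of vesicle release, had 3915 and 3646 bp. GC content of the start also moved with the direction, as given further on.

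Of the genes of cell division most had more bases in KD, and of those of the mitochondrion most had fewer. All 34 mitotic cell cycle genes had a peak in both, 24 with more bases in KD, 8 with fewer and a median difference of 26.5 bp, against 56.6% with more and 13.0 bp over all genes with both. RB1, the retinoblastoma protein, had 1249 bp in CT and 1663 bp in KD, and CCNE1 (cyclin E) 994 and 918 bp. Of 80 cytosolic ribosomal proteins 78 had both, with a median difference of 0 bp. All 78 mitochondrial ribosomal proteins had both, 46 with fewer bases in KD and a median of -18.0 bp. Of all 14185 genes with both, 5919 had fewer bases in KD, and differences of gene groups from that share were not tested. All 37 NADH dehydrogenase subunits had both, 21 with fewer bases in KD and a median of -21.0 bp, among them NDUFA6 with 1636 and 1290 bp. Of 39 proteasome subunits 36 had both, with a median of 4.50 bp. The promoters of the mitochondrial groups thus sat slightly on the CT side, by amounts small beside their median cover in CT of 1690.5 bp for the ribosomal proteins and 1658 bp for the NADH dehydrogenase.

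Stress and defence genes did not lean strongly either way. Of 22 heat shock genes 21 had both, with a median difference of 0 bp, and HSP90AA1 had 2804 and 3081 bp and DNAJB1 3303 and 3151 bp. Of 30 interferon response genes 22 had both, 11 in either direction. OAS1, an activator of RNase L, had 223 bp in KD only, 3.33% of the list (0.0844 to 17.2%) against 1.09% of all genes. IFITM1, a restriction factor of virus entry, had 1401 and 1862 bp. Of 65 interleukins and their receptors 24 had both. The single-condition members, chosen after their values were seen, were IL3RA (242 bp in CT only) and, in KD only, IL32 (325 bp), IL13RA2 (195 bp) and IL7R (98 bp). Their shares, 1.54% (0.0389 to 8.28%) in CT only and 4.62% (0.962 to 12.9%) in KD only, have intervals that include those of all genes, 0.387% and 1.09%.

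The clustered protocadherins, like the HOX genes, had a KD only share whose interval lay above the share of all genes. Both intervals treat neighbouring genes of a cluster as independent and were not adjusted for the number of gene lists compared. Without replicate libraries, whether these families differ from genes at large was not tested. Of 508 ZNF-named zinc finger genes 436 had a peak in both. In CT only there were 2 (ZNF560 and ZNF600), 0.394% against 0.387% of all genes, and in KD only 10 (1.97%, 0.948 to 3.59%, against 1.09%). Of 53 clustered protocadherins, which give neurons their surface identity, 31 had both, 1 (PCDHB16) was CT only and 6 were KD only, the latter 11.3% (4.27 to 23%) against 1.09% of all genes. The CT only share was 1.89% (0.0478 to 10.1%), against 0.387%. Of 69 replication-dependent histone genes 52 had both, 31 with fewer bases in KD and a median of -7.50 bp. Among all 14185 genes with both, 5919 had fewer bases in KD and the median was 13.0 bp. Of 390 olfactory receptors 377 had no peak in either condition, as had 26 of 27 taste receptors, 142 of 149 keratins and keratin-associated proteins and 44 of 46 defensins. The single-condition members of these were OR4F17, OR4F5, OR51T1 and DEFB104A in CT only, and OR6C70, KRT13, KRTAP21-3 and KRTAP4-6 in KD only. In CT only these were 0.769% of the olfactory receptors (0.159 to 2.23%) and 2.17% of the defensins (0.0550 to 11.5%). In KD only they were 0.256% of the olfactory receptors (0.00649 to 1.42%) and 2.01% of the keratin list (0.417 to 5.77%). These intervals include the shares of all genes, 0.387% in CT only and 1.09% in KD only. Members named here outside the naming rule were chosen after their values were seen. Of 367 solute carriers 246 had both (67.0%, against 72.3% of all genes). SLC9A4 was CT only (0.272%, against 0.387%), and SLC16A3 and SLC45A1 were KD only (0.545%, against 1.09%). Of 40 voltage-gated potassium channels 34 had both. Of 23 cadherins 16 had both, 11 with more bases in KD and 5 with fewer. Their median difference was 107.5 bp, against 13.0 bp over all genes with both. CDH17 was CT only (4.35% of the list, 0.110 to 21.9%, against 0.387% of all genes).

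The starts of CT only genes were close to those of unmarked genes in base composition, and those of KD only genes lay between unmarked genes and genes with both. From 250 bases before to 50 after the start in hg38, genes with peaks in both had a median GC content of 66.7% and a CpG observed over expected ratio of 0.85. Genes with a peak in neither had 53% (52.7 to 53.3%) and 0.27, CT only genes 52.8% (49 to 55.7%) and 0.28, and KD only genes 57.7% (55.0 to 59.3%) and 0.36. The motif CGGCGGCGG, 3 CGG triplets in a row on either strand, occurred in 9.34% of all 19626 starts, in 12.4% of those with both, in 0 of the 76 CT only genes, in 5 of the 214 KD only genes (2.34%) and in 1.48% of those with neither. An absent motif says only that these letters are not in the window.

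Base composition separated the exclusive peaks of the conditions. In the central 200 bp, promoter peaks of CT only had a median GC content of 44% (43.5 to 45%) and those of KD only 53.5% (53 to 54.5%), while shared promoter peaks had 57.0% in CT and 57.5% in KD. Away from promoters, exclusive peaks had 40% in CT and 45.5% in KD. Over whole lists the median was 47.0% in CT and 48.5% in KD. The CTCF lists moved the same way, with 41% in CT and 43% in KD, whereas H3K9me3 had 39.0% and H3K27me3 39.5% in either condition.

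Split by GC content, the KD excess turned into a deficit at the AT-rich end. These classes were chosen after the values were seen. Among promoter peaks with under 40% GC there were 312 in CT only and 205 in KD only, and among those with 60% or more, 102 and 643. Away from promoters the counts were 4607 and 3042 under 40%, and 963 and 3562 from 50 to 60%. The KD over CT ratio of all peaks away from promoters was 0.88 under 40% GC, 1.33 from 50 to 60% and 1.19 at 60% or more. With only the peaks of 40 to 60% GC, a filter that can remove a shared locus from a single list, the KD over CT ratio of covered promoter bases was 0.993 (0.97 to 1.02), while away from promoters it was 1.20 for peak number and 1.14 for bases.

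The same held base by base within the promoter windows of protein-coding genes, cut into 352367 tiles of 200 bp. Of the tiles with under 40% GC, 1.57% lay in a CT peak only and 0.696% in a KD peak only. From 40 to 50% GC these were close, at 1.23% and 1.22%. At 70% GC or more 1.23% lay in a CT peak only and 6.76% in a KD peak only, and CT peaks held 40.1% of these tiles against 45.6% for KD. Of these GC-rich tiles, 7.08% with a CGG run and 6.71% without lay in a KD peak only, and 0.803% and 1.30% in a CT peak only, while CT peaks held 24.8% of those with a run and 42.8% of those without. From 60 to 70% GC the shares in a KD peak only were 3.94% with a run (43 of 1090 tiles) and 1.96% without. At genes with peaks in both, the median KD minus CT difference followed the GC content of the start, from -23 bp under 40% to 0 bp from 50 to 60% and 32.0 bp at 70% or more, where 66.0% of 5290 genes had more bases in KD. The part that GC content played in the differences between CT and KD, among them the shift of the HOX and other developmental genes, was not tested.

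**Figure D5:**
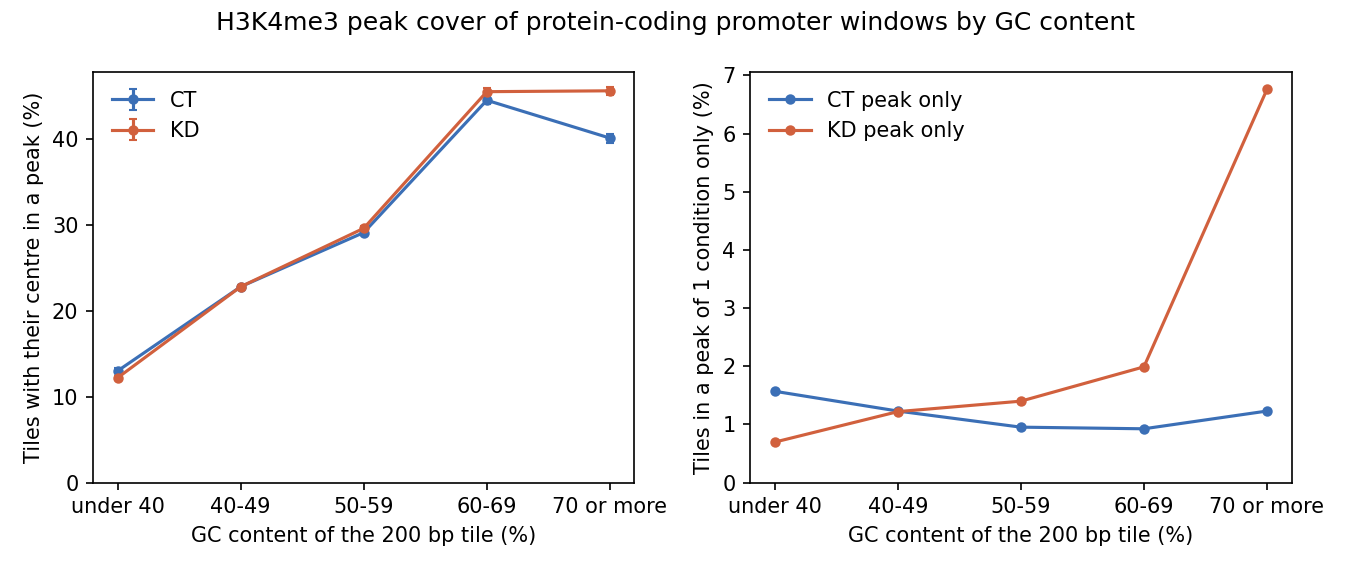
Tiles of 200 bp in protein-coding promoter windows by GC content, as the share with their centre in a CT or a KD H3K4me3 peak (first panel, with 95% intervals) and in a peak of a single condition (second panel). In tiles of 70% GC or more, 6.76% lie in a KD peak only and 1.23% in a CT peak only, and under 40% GC the order is reversed.

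CGG runs were found at KD only and shared promoter peaks and hardly at CT only ones. In the 200 bp around the peak centre, which reach past the narrowest peaks, the run occurred in 65 of 1995 promoter peaks of KD only (3.26%, 2.52 to 4.13%) and in 1 of 995 of CT only (0.101%, 0.00254 to 0.559%), the latter at SOX2, a pluripotency factor. Among shared promoter peaks it occurred in 1.72% in CT and 1.95% in KD, but these are wider. Under 300 bp it occurred in 3.13% (2.46 to 3.92%) of the shared CT peaks and 2.70% (2.02 to 3.53%) of the shared KD peaks, against 3.93% (2.95 to 5.13%) of those of KD only and 1 of 645 of CT only. At like width the KD only peaks were thus near the shared ones, and the CT only peaks stood apart. Of the 65 peaks, 62 lay within 1 kb of a CT peak, with a median gap of 241 bp, and 65 of the 66 protein-coding genes at them had a promoter peak in both conditions. They are thus small KD peaks, of median width 231 bp, beside start regions marked in both conditions. The longest runs under these peaks, of 7 triplets, were at GSG1L and at HECTD4, a HECT-type ubiquitin ligase gene, followed by 6 triplets at KDM2A, a demethylase that binds CpG islands. Further peaks of this kind lay at KMT2C, HOXC13, FOXD2 and FZD1. These genes were chosen after their values were seen.

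Of the widest exclusive peaks away from promoters, those of CT again included the exon set. The peaks at chr17:43092739-43094817 (2079 bp) and chr17:43091516-43092592 (1077 bp) lie in an exon of BRCA1, and each overlapped an H3K27me3 peak of CT. The others of CT lie in introns of CDC42SE2 (1162 bp, chr5:131280688-131281849) and RABGAP1, a GTPase-activating protein (1074 bp, chr9:123049507-123050580), and in a noncoding gene 6.11 kb from a start of CTNNA2, a neuronal catenin (1097 bp, chr2:79178023-79179119). None of these 3 overlapped a CTCF, H3K9me3, H3K27me3 or input peak.

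The widest distal peaks of KD only were all about 1 kb wide and lay outside exons. They lie in introns of EDAR, the ectodysplasin receptor (1093 bp, chr2:108957191-108958283), of TPST1, a tyrosine sulfotransferase (1052 bp, chr7:66281563-66282614), and of NUAK1, an AMPK-related kinase (1034 bp, chr12:106090481-106091514). The intergenic ones lie 14.4 kb from a start of DUSP5, a phosphatase of ERK (1061 bp, chr10:110512309-110513369), and 40.3 kb from a start of BCL2L14 (995 bp, chr12:12008574-12009568). The last one overlapped CTCF peaks of both conditions, and the peak in TPST1 lay 870 bp from a CT peak.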

How the data were processed

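H3K4me3 ChIP-seq peaks of HEK293T cells with a non-targeting (CT) or CGGBP1-silencing (KD) shRNA were compared, with 1 library per condition. The deposited lists give peak positions in bp, and no score, signal or count. Bowtie2, MACS2, bedtools and hg38 come from the submitters' processing notes, with versions not given in the sources used here. The labels state a p threshold of 0.001 for these lists, and the methods state another for unmasked reads, so the threshold used is not settled. Per the labels, the libraries were sequenced without barcoding. The antibodies of H3K9me3 and H3K27me3 are exchanged between labels and methods. Each list was taken as the mark its title gives.

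Starts were read as counted from 1, since the lowest start was 1 and none was 0. Promoters were windows of 1 kb on either side of transcript starts (GENCODE release 44). MANE exons come from the same annotation. A tile counted as covered when its centre lay in a peak. Intervals for ratios of peak numbers are exact, those for medians use order statistics, and covered bases were given the relative interval of the peak number. Sequence was taken as repeated elsewhere when minimap2 aligned at least 90% of a peak to another place at 95% identity or more. Python 3.11.15, numpy 2.4.6, pandas 2.3.3, scipy 1.17.1, pysam 0.24.0 and minimap2 2.31-r1302 were used, and the overlap functions were tested on simulated data.

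Named were, by a fixed rule, the 12 genes in each direction with the most promoter bases in a single condition, the 6 in each direction with the largest difference where both had peaks, members of lists under 40 genes, CGGBP1, and the 5 widest exclusive distal peaks of each condition. Some genes that fall under this rule or in the exon set are not reported here. The members and the 29 gene lists were chosen with earlier results of these data known. Alternatives changed the promoter window, the starts, the overlap rule, the widths, sequences and peaks kept. Repeat-masked and exclusive CTCF lists, 10 in all, were not used here, nor the Y chromosome.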

Additional observations from a re-analysis of the deposited data

Results flagged for a closer look

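Outside chromosomes 1 to 22 and X, which every comparison above used, lay 2952 H3K4me3 peaks of CT and 3095 of KD. They stand out as peaks in sequences that the comparisons leave out, and make up 3.84 and 3.78% of their lists. The shorter input list had 265 peaks there, a larger share of 9.90%. An input peak overlapped 226 of the CT peaks and 232 of the KD peaks. Alternate loci held 2392 of the CT peaks and 2462 of the KD peaks, and those of chromosome 6, which include the MHC genes, held 1166 and 1157. Alternate loci repeat sequence of the main chromosomes, and how reads were divided between them is not known from the lists.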

How the results depend on the processing

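Of 12 alternatives to 12 results, 76 values stayed within the interval or, for gene counts, 1.5 times the main count. 46 moved further and 6 changed sign. Results that an alternative leaves untouched by its definition, or for which it was not run, have no value: the overlap of 0.5 gave the 4 shares, the tolerance of 1 kb the shares and gene counts, and all sequences no gene counts. No cause was tested except where stated. Shares are given for CT then KD.

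The promoter width difference, whose interval included 0, became 4 bp with windows of 500 bp, 1 bp with 1 start per gene, 1 bp with peaks of 300 bp or wider and 18.0 bp with the widest 70000 peaks of each list. The distal width difference became 16.0 bp with the widest 70000 peaks, -7.00 bp with peaks of 300 bp or wider and -31.0 bp with peaks of 40 to 60% GC.

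With the widest 70000 peaks the ratio of peak numbers was 1 at promoters and 1 away, and that of distal bases 1.02. Keeping equal numbers sets the overall ratio near 1 by construction. Shared peaks were then 95.9 and 94.9% at promoters, 76.8 and 77.1% away. With peaks of 300 bp or wider the distal ratios were 1.05 for number and 1.04 for bases, and 94.1% (promoters) and 75.9% (away) of KD peaks were shared.

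Shares at promoters were 97.4 and 94.3% with windows of 500 bp, 94.5 and 90.6% with 2500 bp, and 97.9 and 94.7% with 1 start per gene. Distal shares were 79.4 and 73.4% with 500 bp and 80.0 and 74.1% with 1 start. An overlap of at least 0.5 of the peak gave 95.3 and 91.4% at promoters, 72.5 and 66.6% away. A tolerance of 1 kb gave 97.8 and 96.2%, and 83.3 and 77.8%. Distal shares were 79.7 and 73.8% over all sequences and 78.5 and 72.1% without peaks that overlap input peaks.

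A set of 3 alternatives was chosen after seeing the data. Without the exon set the CT promoter share was 96.8%. Without peaks that overlap H3K27me3 or H3K9me3 peaks the distal number ratio was 1.11 and the distal KD share 72.0%. With only the peaks of 40 to 60% GC, promoter bases gave 0.993, distal number 1.20 and distal bases 1.14, with shares of 80.5 and 79.4% at promoters and 70.9 and 59.3% away, and 1096 genes in CT only and 943 in KD only. Each list was filtered by its own peak centres, so a locus marked in both can lose its peak in a single list, and the larger gene counts and lower shares follow from that construction.

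No paired analysis was possible because each condition has 1 library. Differences between CT and KD have no replicate check. The lists give no read depth, so a place without a peak is a place without a call at the threshold used, and a lower signal and an absent one cannot be told apart. For whole libraries, the study reports fewer mapped H3K4me3 reads in KD than in CT. The comparisons of peak number here took no account of that.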
